A study of Mus musculus with 2 samples.

Results

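Kinesins are motor proteins that walk along microtubules with energy from ATP. Most move toward the plus end of the microtubule and carry vesicles, organelles or ciliary cargo, while others slide, cross-link or shorten the microtubules of the spindle. Mammalian oocytes build their meiotic spindle without centrioles, and motors of the kinesin-5, kinesin-13 and kinesin-14 subfamilies are known to take part in shaping it. The levels of the kinesin genes were read in RNA from small mouse oocytes, the cells of the ovarian reserve that the series on mechanical stress and dormancy is about.

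The kinesin genes were taken by name: a row belonged to them if its symbol began with Kif or Kifc followed by a digit. This rule found 46 of the 53832 genes in the table, of which 42 were protein-coding motor genes. The other 4 were the pseudogenes Kifc5c-ps, Kif22-ps and Kif4-ps and the antisense gene Kif16bos. The name rule uses no measured value.

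Polyadenylated RNA had been sequenced from 1 group with 2 libraries, replicates 1 and 2. Ovaries of female mouse embryos had been cultured under 33.3 kPa of external pressure, and oocytes had been sorted by a CFP reporter of the germ cell gene Stella. The sources used here do not give the strain, the age of the embryos or the length of the culture. Both libraries come from pressure-treated ovaries, so the values describe oocytes under pressure and hold no comparison with untreated cells. Nothing in the labels says that the libraries came from separate animals or cultures, so SDs measure only the spread of these libraries, part or all of which may be technical. The exact binomial p-values given below allow for counting noise alone.

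The libraries held 5019462 and 5274338 expected counts. Levels are given as TPM, a measure scaled for gene length and for library size, and a gene was taken as expressed when both libraries reached a TPM of 1. All 12 germ cell markers were expressed. Of 49 markers of 7 other cell types, such as granulosa, stroma and blood cells, 9 were expressed and 11 had a count of 0 in both. Those 49 markers held 0.00815% and 0.00736% of the counts, and none exceeded a mean TPM of 14.7. In sorted bulk cells, fewer cells that express a gene and less RNA of it per cell cannot be told apart.

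Sequences are shown for the genes on which the results turn. Kifc1, a minus-end-directed kinesin-14 that cross-links and focuses spindle microtubules, has a close copy, Kifc5b, elsewhere on chromosome 17, and how similar they are bears on how far their counts can be separated. Their coding sequences were 98.2% identical over 2022 aligned positions, with 1 run of 268 bases without a difference. Of the 100-base coding windows that align without a gap, read from GENCODE transcripts, that with the most differences between them holds 5. Windows with a gap were not considered. The capitals mark the bases that differ.
Kifc1: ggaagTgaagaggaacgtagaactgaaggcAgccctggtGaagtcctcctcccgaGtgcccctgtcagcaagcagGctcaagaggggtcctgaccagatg
Kifc5b: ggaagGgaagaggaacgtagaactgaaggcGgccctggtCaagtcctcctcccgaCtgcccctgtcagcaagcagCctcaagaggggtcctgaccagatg

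Promoter windows of 250 bases before to 50 bases after the start of the gene came from RefSeq on GRCm38.p6, and 34 of the 46 genes had one. The capitals mark CCAAT, which the factor NF-Y binds, and TTTGAA, a form of the cell cycle homology region (CHR) found in many genes of cell division, each searched on both strands, so that they also appear as ATTGG and TTCAAA. A second CHR form, TTCGAA, was searched too. The first pair shows Kifc1 (chr17:33890584-33890883, minus strand) and Kifc5b (chr17:26916841-26917140, plus strand).
Kifc1: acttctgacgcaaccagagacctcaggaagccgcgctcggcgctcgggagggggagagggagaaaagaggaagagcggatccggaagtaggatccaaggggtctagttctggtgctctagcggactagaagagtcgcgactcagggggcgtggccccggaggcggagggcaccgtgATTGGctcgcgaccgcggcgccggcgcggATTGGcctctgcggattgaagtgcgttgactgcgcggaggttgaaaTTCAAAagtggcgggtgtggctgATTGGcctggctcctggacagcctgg
Kifc5b: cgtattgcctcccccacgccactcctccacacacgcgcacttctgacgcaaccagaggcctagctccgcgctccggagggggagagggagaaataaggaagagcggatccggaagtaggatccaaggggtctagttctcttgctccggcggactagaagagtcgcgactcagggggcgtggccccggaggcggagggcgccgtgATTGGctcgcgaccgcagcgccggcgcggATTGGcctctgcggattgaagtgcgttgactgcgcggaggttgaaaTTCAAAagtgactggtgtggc

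Both windows hold TTCAAA after a pair of ATTGG motifs, and over 272 aligned positions 91.5% of the bases were identical. Kif4 (chrX:100625815-100626114, plus strand), a chromosome-bound motor, is shown as another highly expressed gene of division. Kif3a (chr11:53567119-53567418, plus strand) and its binding partner Kif3b (chr2:153291166-153291465, plus strand) are shown because their levels lay far apart. Kif16b (chr2:142901415-142901714, minus strand) is shown because it had the most counts of all kinesins.
Kif4: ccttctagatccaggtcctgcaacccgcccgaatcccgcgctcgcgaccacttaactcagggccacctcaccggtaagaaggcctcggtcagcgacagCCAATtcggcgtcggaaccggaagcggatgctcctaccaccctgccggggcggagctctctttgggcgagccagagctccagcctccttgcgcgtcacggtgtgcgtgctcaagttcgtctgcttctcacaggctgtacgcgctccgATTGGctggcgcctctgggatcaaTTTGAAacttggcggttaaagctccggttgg
Kif3a: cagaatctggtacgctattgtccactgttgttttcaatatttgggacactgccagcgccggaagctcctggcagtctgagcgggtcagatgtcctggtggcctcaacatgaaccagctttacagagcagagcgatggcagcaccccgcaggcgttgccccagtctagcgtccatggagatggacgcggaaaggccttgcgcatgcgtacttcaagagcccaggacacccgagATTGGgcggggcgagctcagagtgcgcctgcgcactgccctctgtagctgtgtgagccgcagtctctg
Kif3b: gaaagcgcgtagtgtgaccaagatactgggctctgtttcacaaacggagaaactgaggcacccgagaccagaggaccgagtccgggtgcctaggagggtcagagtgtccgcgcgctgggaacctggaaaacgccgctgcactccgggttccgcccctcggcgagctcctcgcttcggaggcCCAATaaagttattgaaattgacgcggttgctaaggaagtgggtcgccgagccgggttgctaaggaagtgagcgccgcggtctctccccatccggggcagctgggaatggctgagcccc
Kif16b: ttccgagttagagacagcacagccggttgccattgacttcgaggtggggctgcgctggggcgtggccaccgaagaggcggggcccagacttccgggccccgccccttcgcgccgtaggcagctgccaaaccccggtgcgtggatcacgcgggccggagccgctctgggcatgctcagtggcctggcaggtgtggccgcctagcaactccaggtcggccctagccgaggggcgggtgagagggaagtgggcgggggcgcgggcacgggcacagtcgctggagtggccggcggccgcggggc

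Motors of spindle and division and motors of transport differed in how often their promoter windows held the CHR letters. TTTGAA stood in 11 of 14 windows of spindle and division genes and in 1 of 10 windows of transport genes, that of Kif1a, against 20.2% of the 27025 genes with a window. CCAAT stood in 9 of 14 and 3 of 10, against 41.1% of all genes. Both CCAAT and a CHR form stood in 8 of 14 windows of spindle and division genes, those of Kif4, Kif11, Kif14, Kif18b, Kif22, Kif23, Kifc1 and Kifc5b, and in 0 of 10 windows of transport genes, against 8.61% of all genes. The pair was not confined to spindle genes. It also stood in 2 of 5 windows of cilia and Hedgehog genes, those of Kif24 and Kif27. Of the remaining motor genes, 1 of 4 windows held it, that of Kif26b. TTTGAA alone stood in 1 of 5 and 1 of 4 windows of these groups. The spindle genes Kif2a and Kif18a held none of the letters searched. Kifc1 and Kifc5b, whose windows are near copies, were counted as separate windows and separate matches in each count of spindle and division genes. TTCGAA was found in 1 kinesin window, that of Kif24, and in 1.80% of all genes. The motifs were chosen after some of these windows had been seen, and a match of letters is a description and does not show binding.

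Kinesin transcripts were widely present in the oocytes. Of the 42 motor genes, 34 were expressed, or 81.0%, compared with 53.5% of 21722 protein-coding genes, and 25 had a TPM of 10 or more in each library. The median of log2(TPM + 1) over all 46 rows was 3.85 ± 0.04 (SD, n = 2), and over all protein-coding genes it was 1.82 ± 0.02. With 21 of 22 expressed and a median of 6.0 ± 0.08, the dynein and dynactin genes lay above the kinesins, and the myosin heavy chain and Myo genes lay below, with 21 of 39 expressed and a median of 1.77 ± 0.08. These differences describe lists in the same libraries and were not tested. All kinesin rows together held 13134 counts in replicate 1, or 0.262% of the library (exact Clopper-Pearson 95% interval 0.257 to 0.266%), and 14076 counts in replicate 2, or 0.267% (0.262 to 0.271%).

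The 10 highest motor genes held most of the summed kinesin TPM. The 4 highest, Kif3a, Kif16b, Kifc1 and Kif4, made up 42.6% ± 0.478 of the summed TPM of the 42 motor genes, and the 10 highest made up 69.7% ± 0.547 (SD, n = 2). In the order of mean TPM, the ranges of the libraries overlapped in 25 of 41 neighbouring pairs, so much of the order is not resolved. Kif3a stood above Kif16b and Kif16b above Kifc1 in both libraries, whereas Kifc1 and Kif4, Kif2a and Kif14, and Kif22 and Kif20a were pairs whose values overlapped. The order also depended on the gene length used: with the longest transcript in place of merged exons, Kif16b came first and Kif3a second, at a mean TPM of 150.4 and 147. By counts without length scaling Kif16b also came first, and Kif14 and Kif4 followed.

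**Figure D1:**
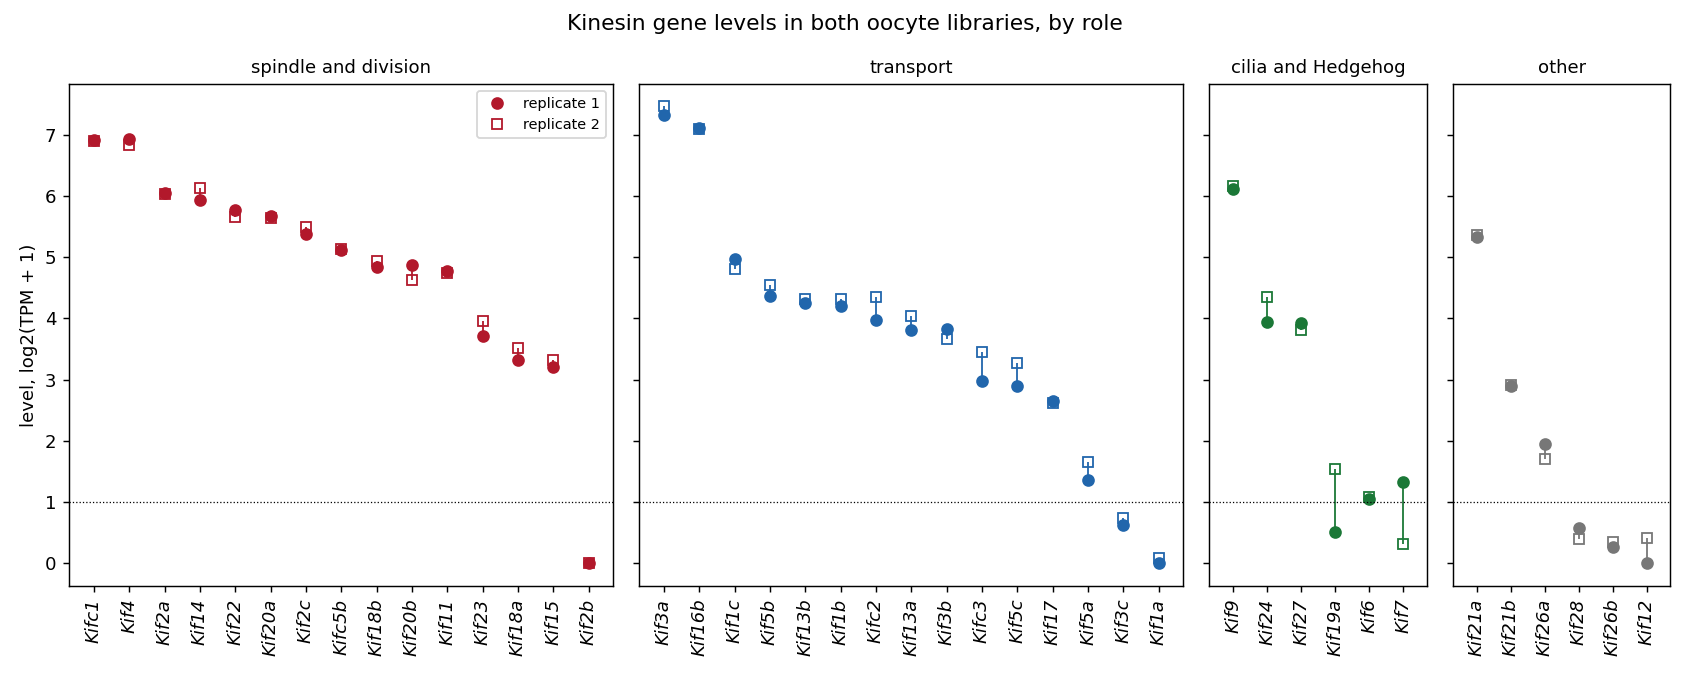
The levels of the 42 kinesin motor genes on a log2(TPM + 1) scale are plotted by role, with filled circles for replicate 1, open squares for replicate 2, a line joining them and a dotted line at a TPM of 1. Kif3a, Kif16b, Kifc1 and Kif4 stand highest, Kif2b lies at 0 in both libraries, and the wide gaps between libraries occur at low levels, as for Kif19a and Kif7.

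Genes of the spindle and of division carried 51.8% ± 1.13 of the summed TPM of the motor genes, and 14 of the 15 were expressed. Motors of transport carried 36.1% ± 0.932, with 13 of 15 expressed. The median of log2(TPM + 1) was 5.13 ± 0.02 for spindle and division and 3.93 ± 0.15 for transport, a difference of 1.20 ± 0.13 that was positive in both libraries. Genes of cilia and Hedgehog signalling carried 8.16% ± 0.220 and the remaining 6 motor genes 3.92% ± 0.0267. Each gene was placed in a single role. The kinesin-2 genes, among them Kif3a, which also serves intraflagellar transport, were counted under transport alone, so these shares depend on that placement. By counts without length scaling, spindle and division genes held 47.7% and transport genes 40.9%.

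Among the motors of the spindle, Kifc1 (ENSMUSG00000079553, chromosome 17, 33875659 to 33890661) stood at a TPM of 120 and 118 in replicates 1 and 2, or 119 ± 1.13, with 705.07 and 722.74 counts. The copy Kifc5b (ENSMUSG00000024301, chromosome 17, 26917091 to 26932583) stood at 33.6 and 34.2, with 214.68 and 227.26 counts. Both libraries thus had Kifc1 above Kifc5b, by 3.50 ± 0.0797 times. Of all 50-base windows in its transcripts, Kifc1 shared 39.7% with other genes, nearly all of them with Kifc5b, and Kifc5b shared 37.4%. Their counts were not whole numbers, so the way in which the authors' tool divided shared reads sets part of this ratio. The summed counts of both, which do not depend on a division between them, were 919.75 and 950. Kifc5c-ps, a pseudogene of the same family, had 2.05 and 0 counts.

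For most other kinesins such sharing was small or absent. Of the 46 genes, 25 had no 50-base window in common with any other gene, and apart from Kifc1 and Kifc5b the highest share was 5.03%, for Kif24. Kif4 and its pseudogene Kif4-ps shared 15 windows, Kif22 and Kif22-ps shared 2, and both pseudogenes had a count of 0 in both libraries.

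Chromosome-bound motors and depolymerases were abundant. Kif4 (ENSMUSG00000034311, chromosome X, 100625737 to 100727214), which compacts chromosomes and limits the growth of the central spindle together with PRC1, stood at a TPM of 121 and 113, or 117 ± 5.79. Kif22 (Kid), which pushes chromosome arms toward the spindle equator, stood at 53.8 and 49.2. Of the kinesin-13 motors, which shorten microtubules at their ends, Kif2a stood at 65.0 and 64.4 and Kif2c (MCAK) at 40.7 and 43.9. Kif2a thus lay above Kif2c by 1.53 ± 0.0917 times in TPM. The remaining spindle member of that subfamily, Kif2b, was at 0 counts in each library. A count of 0 allows up to 0.598 and 0.569 CPM (counts scaled for library size alone) in replicates 1 and 2.

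Motors of cytokinesis and of the spindle midzone spread over a wider range. Kif14, which works with citron kinase at the midbody, stood at a TPM of 60.3 and 69.1. Kif20a (MKLP2), which brings the chromosomal passenger complex to the midzone, stood at 49.9 and 48.8, and Kif20b, a motor of the midbody, at 28.4 and 23.6. Kif23 (MKLP1), the motor of the centralspindlin complex, stood lowest of this group at 12.1 and 14.5. With its longest transcript as gene length, Kif23 stood at a mean of 24.1 in place of 13.3, since its merged exons span 7901 bases and its longest transcript 3398.

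The motors that push spindle poles apart were moderate. Kif11 (Eg5), the kinesin-5 that slides antiparallel microtubules, stood at a TPM of 26.2 and 25.6, and Kif15, the kinesin-12 that can take over part of its work, at 8.25 and 8.95. Kif15 thus stood at 0.332 ± 0.0247 times the level of Kif11 in TPM, at 0.490 times in CPM and at 0.486 times with the longest transcript. Of the kinesin-8 motors that act at plus ends, Kif18b stood at 27.6 and 29.5 and Kif18a, which aligns chromosomes at the plate, at 8.95 and 10.4. Kif18b led Kif18a by 2.95 ± 0.178 times in TPM but by 1.07 times in CPM, so the size of this lead depends on the length scaling.

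Transport was led by 2 genes of different subfamilies. Kif3a (ENSMUSG00000018395, chromosome 11, 53567379 to 53601967), a kinesin-2 subunit of intraflagellar and vesicle transport, stood at a TPM of 158 and 175, or 167 ± 12.1. Its level was above that of 96.1% of protein-coding genes. Kif16b (ENSMUSG00000038844, chromosome 2, 142617474 to 142901531), a kinesin-3 that carries early endosomes toward microtubule plus ends, stood at 137 and 136, or 136 ± 0.843, with 2142 and 2206 counts. Kif16bos, named as the opposite-strand gene of Kif16b, had a count of 0 in both libraries.

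The subunits of the heterotrimeric kinesin-2 motor were present at unequal RNA levels. KIF3A pairs with KIF3B or KIF3C, and the accessory protein KAP3, encoded by Kifap3, binds the pair. Kif3b stood at a TPM of 13.2 and 11.7, and Kif3c at 0.547 and 0.677 with 7 and 9 counts. Kif3a was higher than Kif3b by 12.0 and 15 times in replicates 1 and 2, or 13.5 ± 2.11, and by 8.60 times in CPM without length scaling. Kifap3, at 135 and 126, lay near Kif3a, with a ratio of Kif3a to Kifap3 of 1.28 ± 0.155. The homodimeric kinesin-2 Kif17 stood at 5.31 and 5.11. Kif3a therefore made up 90.1% ± 1.18 of the summed TPM of its subfamily.

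**Figure D2:**
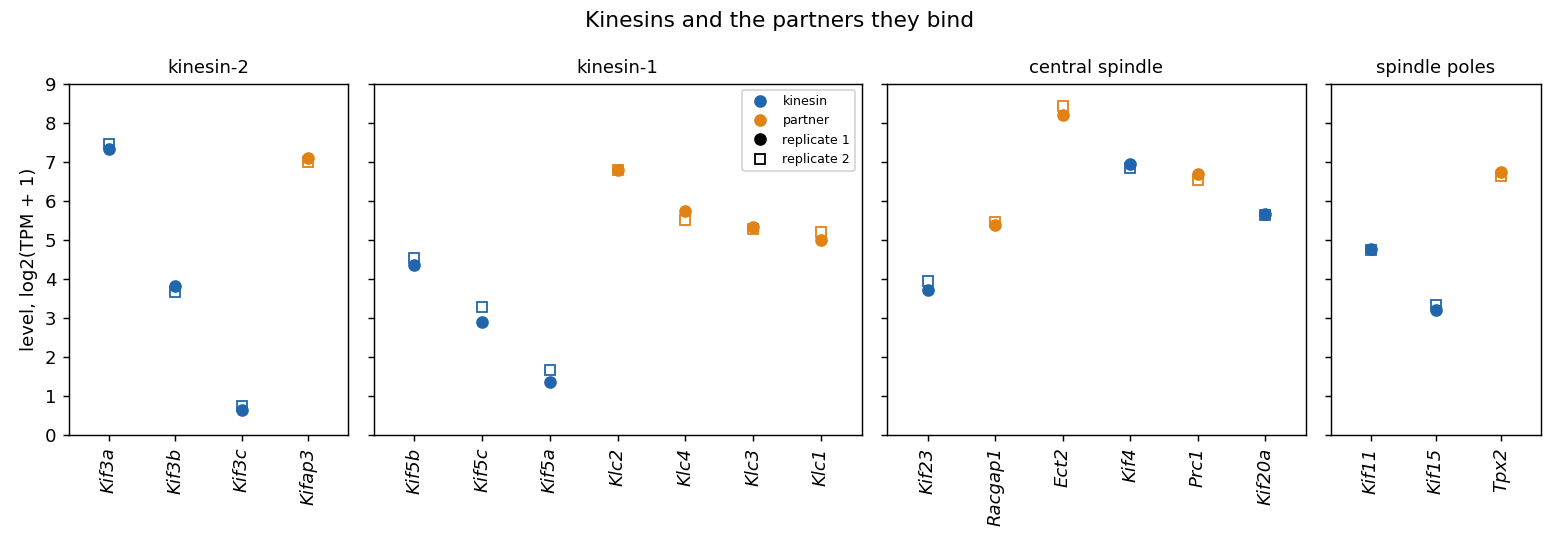
Levels on a log2(TPM + 1) scale are shown for kinesins (blue) and proteins that bind them (orange), with filled circles for replicate 1 and open squares for replicate 2. Kifap3 lies beside Kif3a and far above Kif3b and Kif3c, and the 4 kinesin light chain genes lie above the 3 kinesin-1 heavy chain genes, an order that holds for Klc2 alone against Kif5b without length scaling.

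The heavy chain genes of conventional kinesin, kinesin-1, stood below Kif3a and Kif16b. Kif5b (ENSMUSG00000006740, chromosome 18, 6201002 to 6242174), the heavy chain found in most cells, stood at a TPM of 19.5 and 22.3, above 71.0% of protein-coding genes by its mean. Kif5c stood at 6.40 and 8.66, and Kif5a, known from neurons, at 1.57 and 2.15. Kif5b was higher than Kif5c by 2.81 ± 0.336 times, in both libraries. The light chain genes, whose products bind the heavy chains and cargo, were higher in TPM: Klc2 stood at 110 and 109, Klc4 at 52.6 and 44.5, Klc3 at 39.2 and 37.9 and Klc1 at 30.6 and 35.9. Klc1, the lowest of them, stood at 1.59 ± 0.0306 times the TPM of Kif5b, and at 0.810 times in CPM. By counts, which carry no length scaling, Kif5b with 269 and 319 lay above Klc4 with 216 and 190 and Klc3 with 179 and 180 as well, so among the light chains Klc2 alone led Kif5b on both scales.

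The other kinesin-3 motors of transport lay below Kif16b. Kif1c, a carrier of vesicles, stood at a TPM of 30.5 and 27.0, Kif13b at 18.0 and 19.0, Kif1b, which moves mitochondria and vesicle precursors, at 17.4 and 18.9, and Kif13a at 13.1 and 15.4. Kif16b was higher than Kif1c, the next of these carriers, by 4.75 ± 0.373 times. Kif1c led Kif1b by 1.59 ± 0.227 times in TPM and stood at 0.658 times in CPM, so the order of that pair turns with the length scaling. Kif1a, the carrier of synaptic vesicle precursors in neurons, had 0 and 1 counts, and Kif28 had 3 and 2. The kinesin-14 genes Kifc2, at 14.7 and 19.4, and Kifc3, at 6.88 and 9.89, were higher in replicate 2, though neither passed the test between libraries.

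**Figure D3:**
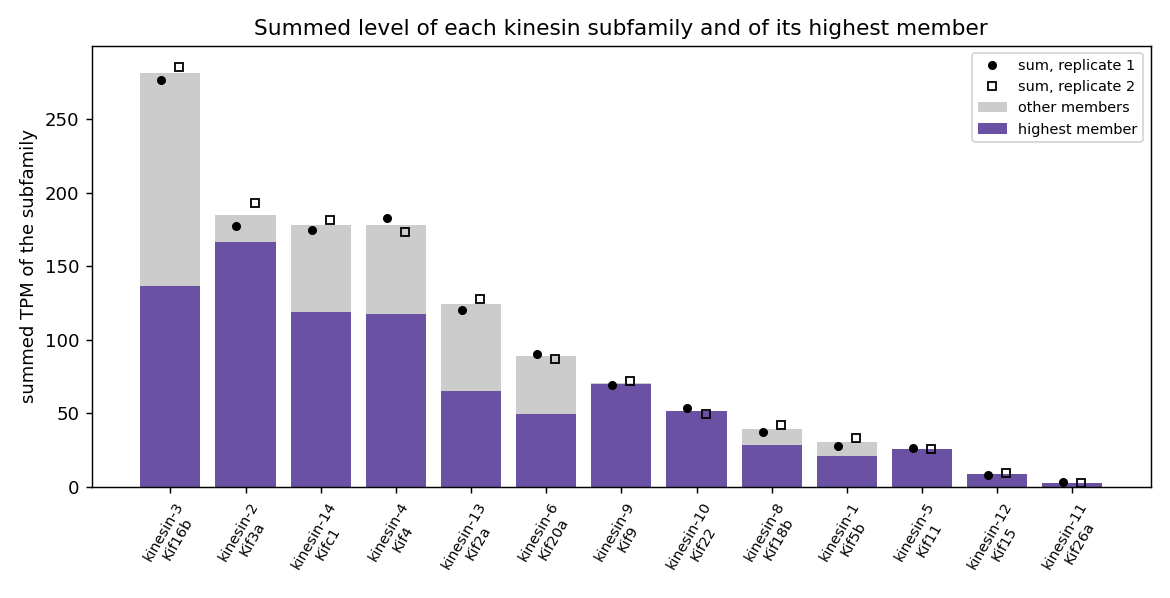
Bars show the summed TPM of each kinesin subfamily (mean of both libraries), with the part of its highest member in purple and that of its other members in grey, and points give the sum in each library. Kinesin-3 stands highest at 281, Kif3a fills most of kinesin-2, and kinesin-1 stands at 30.3.

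Among the genes listed under cilia and Hedgehog signalling, which leave out Kif3a and the other kinesin-2 genes, 1 stood out by level. Kif9 (ENSMUSG00000032489, chromosome 9, 110476958 to 110525179), known in mice from the axoneme of motile cilia and sperm tails, stood at a TPM of 68.3 and 70.7, or 69.5 ± 1.67. Kif6, the other kinesin-9, stood at 1.06 and 1.11, with 11 and 12 counts, so Kif9 made up 98.5% ± 0.0158 of that subfamily. Kif24, which restrains the growth of primary cilia at the centriole, stood at 14.3 and 19.5, and Kif27 at 14.1 and 13. Kif7, a regulator of GLI proteins in Hedgehog signalling, had 12 and 2 counts, and Kif19a, which shortens ciliary microtubules, had 3 and 14. Each of the latter pair passed a TPM of 1 in only 1 of the 2 libraries.

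Of the remaining motors, Kif21a, which holds back microtubule growth at the cell cortex, stood at a TPM of 39.2 and 40.3 and its paralogue Kif21b at 6.41 and 6.54. Kif21a was higher by 6.13 ± 0.0376 times in TPM and by 3.26 times in CPM. Kif26a, a kinesin without ATPase activity, stood at 2.85 and 2.26. Its paralogue Kif26b had 5 and 7 counts, and Kif12, known from kidney and liver, had 0 and 2. In all, 8 of the 42 motor genes stayed below a TPM of 1 in at least 1 library: Kif1a, Kif2b, Kif3c, Kif7, Kif12, Kif19a, Kif26b and Kif28.

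Partners of the spindle motors were all expressed. All 12 genes of this list had a TPM above 1 in each library, with a median log2(TPM + 1) of 5.93 ± 0.02. The highest was Ect2, the activator of RhoA that centralspindlin recruits, at 294 and 345, followed by Incenp at 151 and 139. The lowest were the kinesin-7 gene Cenpe, a motor of the kinetochore outside the name rule, at 33.1 and 34.4, and Nuf2 at 26.7 and 30.3. Racgap1, the partner of KIF23 in centralspindlin, stood at 40.2 and 43.0, and Kif23 at 0.319 ± 0.0249 times that level. Tpx2, which binds KIF11 and KIF15, stood at 105 and 97.3. Kif11 stood at 0.256 ± 0.00963 times the level of Tpx2 in TPM and at 0.409 times in CPM.

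Prc1, a microtubule bundler that KIF4 binds at the central spindle, stood at a TPM of 101 and 90.9. Kif4 stood at 1.22 ± 0.0341 times the level of Prc1 with merged exons but at 0.599 times with the longest transcript and 0.818 times in CPM, so no order of this pair is read. Cargo adaptors were led by Arl8b, the lysosomal GTPase that recruits kinesins, at 136 and 145, and by Kifap3. Of 19 adaptor genes, 17 were expressed, and Fez1 and Mapk8ip2 had at most 1 count in each library. Of 15 genes of intraflagellar transport and Hedgehog signalling, 13 were expressed, led by Ift52 at 87.2 and 98.8 and Ift20 at 91.9 and 78.6. The 2 that were not expressed were Gli3, with 5 and 8 counts, and Gli1, with 1 and 4.

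Kinesin levels lay about as close together in the 2 libraries as those of all tested genes. The median log2 ratio between the libraries, taken without its sign, was 0.12 for kinesins and 0.15 for all tested genes. The comparison of the libraries sets a library against another of the same treatment, so a difference belongs to these libraries and not to a condition. Each gene was put to an exact binomial test, two-sided, with p-values adjusted by Benjamini-Hochberg over 12182 genes. Of the kinesins, 34 had enough counts to be tested and 12 did not. With calls set at 2-fold or more and an adjusted p under 0.05, 0 of the 34 were called, where the background over all tested genes was 0.673%. Without a fold minimum 2 were called, both higher in replicate 2, against a background of 7.84% in either direction, 4.26% higher and 3.58% lower. At an unadjusted p under 0.05 there were 7, against 20.6% of all genes, and with the negative binomial exact test of edgeR at a preset biological coefficient of variation of 0.1 there were 0, against 3.6% of all genes.

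The kinesins past the threshold were Kif24 and Kif14. Kif24 had 198 and 280 counts and a log2 ratio of replicate 2 over replicate 1 of 0.43 with an SE from counting of 0.13 (exact binomial test, adjusted p = 0.024). Kif14 had 1079 and 1284 counts and a log2 ratio of 0.18 with an SE from counting of 0.06 (exact binomial test, adjusted p = 0.033). Neither reached an adjusted p under 0.05 in the negative binomial test of edgeR, which called 0.115% of all genes and gave both an adjusted p of 1.00, and the binomial p allows for counting noise alone. Over all tested genes the counts spread by a common biological coefficient of variation of 7.31%.

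Across the 34 tested kinesins, log2 ratios of replicate 2 over replicate 1 ran from -0.34 for Kif26a to 0.51 for Kifc3, with a median of 0.04 beside 0.00 for all tested genes. Of the 34, 21 were higher and 13 lower in replicate 2, so 61.8% were higher, beside 50.1% of all tested genes. Spindle and division genes had 7 of 14 higher with a median of -0.01, and transport genes 9 of 13 higher with a median of 0.14. Kinesins with fewer counts differed more between the libraries. The 16 kinesins with a mean of at least 300 counts differed by at most 0.28 on the log2 scale, and the 18 with fewer by up to 0.51. By the same exact binomial test at an adjusted p under 0.05, 1 of 17 tested cargo adaptors (Rhot2), 2 of 13 intraflagellar and Hedgehog genes (Ift172 and Gli2) and 2 of 12 spindle partners (Ect2 and Hmmr) were higher in replicate 2, against 4.26% of all tested genes. Of the 12 spindle partners 1, Prc1, was lower, against 3.58%.

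**Figure D4:**
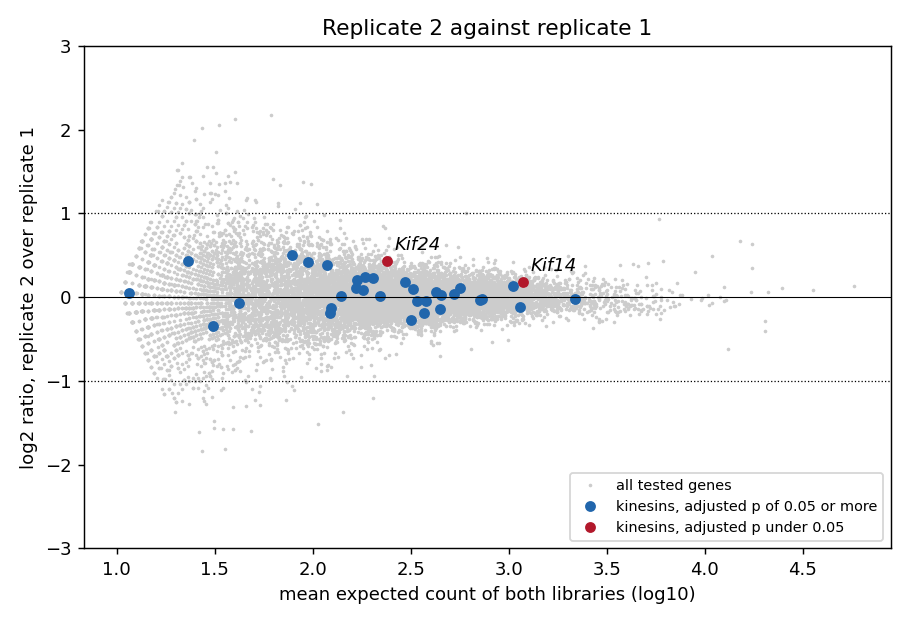
The log2 ratio of replicate 2 over replicate 1 is plotted against the log10 of the mean expected count for all 12182 tested genes (grey) and the 34 tested kinesins (blue, or red where the adjusted p was under 0.05), with dotted lines at a 2-fold ratio. All kinesins lie within the dotted lines, and Kif24 and Kif14 are the red points.

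Genes on the opposite strand overlap several kinesins, and the sources used here do not state the strand setting of the counting. Protein-coding neighbours overlap Kif4 (Pdzd11, 411 and 516 counts), Kifc2 (Cyhr1, 563 and 580), Kif20a (Cdc23, 225 and 246), Kif7 (Ticrr, 213 and 261), Kif2a (Dimt1, 93.7 and 78) and Kif18a (Mettl15, 34 and 18) on that strand. The libraries were strand-specific. On the same strand, Ahctf1 (348 and 365 counts) overlaps Kif28 and Sh2d5 (15 and 16 counts) overlaps Kif17, so the low counts of Kif28 and Kif17 are uncertain. The part of these neighbours in the kinesin counts was not tested.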

How the data were processed

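Poly(A) RNA was isolated with beads and turned into strand-specific, PCR-amplified libraries, per the labels' protocols. Per the submitters' processing notes, fastp 0.20.0, STAR 2.7.7a and RSEM were used on GRCm38. The sources used here do not state the annotation release or settings. The authors deposited expected counts per gene, estimates that need not be whole, scaled neither for depth nor for length. The table's other 21 per-sample columns fit no sample here and were left aside.

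Ensembl IDs were looked up in GENCODE M21 on GRCm38 (53579 of 53832). TPM was the count per kilobase of merged exons, rescaled within a library to a fixed sum. Errors are SDs over 2 libraries, and pairs of values are those of replicates 1 and 2. Intervals and floors (3 counts) cover counting error only, since PCR reads without molecular identifiers are not independent molecules. Between libraries, rounded counts of genes kept by filterByExpr were set against TMM effective library sizes (edgeR 4.0.16, R 4.3.3) in an exact binomial test; a quasi-likelihood test has no residual degrees of freedom here. Log2 ratios used a prior count of 0.5. The procedure was tested on simulated counts that held counting noise alone, so that check does not cover spread beyond it. Alternatives were CPM, longest-transcript lengths, other thresholds, pseudocounts and scalings, and a negative binomial test.

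By rule, values are given for the 20 genes of highest mean TPM, those past the threshold, the extremes of each subfamily and the 2 highest and 2 lowest of each partner list. Values of other members and partners, such as Kif3b, Kif5c and the light chains, were added after they had been seen. The name rule, though free of measured values, and the lists were chosen with earlier results of these data known. None of the 46 rows bears the listed names Kif25 or Kif1bp, which are not analysed here. Not every gene that overlaps a kinesin is reported here.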

Additional observations from a re-analysis of the deposited data

How the results depend on the processing

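The number of kinesins expressed, 34 at a TPM of at least 1, was 31 at a TPM of at least 5, 35 with CPM, 34 with the longest transcript and 35 in either library alone. Their median log2 level, 3.85, was 5.06 with CPM, 3.90 with the longest transcript, 3.76 with a pseudocount of 0.1, 4.38 over expressed members, 3.99 without mitochondrial genes in the totals and 4.05 over the 42 protein-coding motor genes, an alternative added after the data had been seen, and it ran from 3.82 to 3.88 when either replicate was left out. The lead of spindle over transport genes, 1.20, kept its direction in the alternatives run: it was 1.33 with CPM, 1.44 with the longest transcript, 1.25 with a pseudocount of 0.1 and 1.14 over expressed members, and 1.10 to 1.29 when either replicate was left out.

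Between the libraries, 0 kinesins were called with DESeq2 size factors, library totals, no filter or the negative binomial test (BCV 0.1), and 2 with no fold minimum. The count without a fold minimum, with alternatives chosen after seeing the data, was also 2 under each scaling and without a filter. In the negative binomial test it was 0: for Kif24 and Kif14 the log2 ratios stayed at 0.43 and 0.18 with an adjusted p of 1.00 each, and that test adds a preset spread to the counting noise. Of the 34 tested kinesins, to which these checks were extended after seeing the data, 34 kept direction and side of the threshold with DESeq2 size factors and with library totals, and 32 in the negative binomial test. Leaving out a library leaves no comparison between libraries. No paired analysis was possible because there is 1 group.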
